A study of Drosophila subpalustris with 2 samples.

Results

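The abundant gene models of the large blocks are 151 of the 17716 models in the draft annotation of Drosophila subpalustris. They were chosen by their measured level. Gene models are listed in 7 blocks of rising locus tags, and the 4 large leading blocks, 1 to 4, hold 13119 models. A model of blocks 1 to 4 was taken when its sense CPM (counts on its own strand per 1000000 such counts) averaged 1000 or more over both libraries. Another 26 models reach this level in blocks 5 and 6 and were left out by the rule, among them ACLKA7_011788 of block 6, at 8682 and 14525 CPM in replicates 1 and 2. The 151 models made up 1.15% of the models in blocks 1 to 4 and 0.852% of all models. Counts were not corrected for transcript length, so the order of levels below is an order of read counts and not of molecules.

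Drosophila subpalustris is a fly of the quinaria species group, and its RNA was sequenced as evidence for annotating a draft genome. Polyadenylated RNA came from whole bodies of adults of both sexes, with no treatment named, kept at room temperature on a cornmeal, sucrose and yeast food, in 2 separate pools of 10 to 20 flies. The labels give no genotype, age or ratio of males to females, and RNA of all tissues is mixed in each pool. The 2 libraries, called replicates 1 and 2, form 1 group, so no condition was compared, and every difference below is between 2 libraries. A difference in the number of cells of a type cannot be told apart from a difference in RNA per cell.

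In whole adult flies, a small number of genes usually supplies much of the messenger RNA. In Drosophila melanogaster these include genes for ribosomal proteins and translation factors, for the contractile proteins of flight muscle, for mitochondrial energy supply, for digestive enzymes, for yolk proteins of the female fat body and for seminal proteins of the male accessory gland. The deposited tables carry locus tags without gene names. Which of these roles the 151 models have is therefore not given here, and the models are described by tag.

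The abundant models held 9415450 of 26141490 sense counts in replicate 1, a share of 36.0% (95% exact binomial interval 36.00 to 36.04). They held 11735960 of 25544996 in replicate 2, a share of 45.9% (45.92 to 45.96). The mean was 41.0% ± 7.0 (SD, n = 2), and the libraries thus differed far beyond counting error. Several reads may stem from one molecule here, since the reads carry no molecular identifiers, and intervals cover the error of counting alone. Of the counts within blocks 1 to 4, the abundant models took 42.8% in replicate 1 and 54.3% in replicate 2. Counting error was small for each model. The smallest counts of any abundant model were 9673 in replicate 1 and 17841 in replicate 2, with Poisson errors of 1.02% and 0.749%. Reads that aligned to several places, 2.00% of the reads of replicate 1 and 3.12% of those of replicate 2, are assigned to no model. The count of a model that has a near-identical copy can therefore be too low.

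In blocks 1 to 4, a leading pair of models stood far above the others in both libraries. Ranks below are within the 151 models. ACLKA7_009625, in block 4, stood at 22445 and 31328 CPM in replicates 1 and 2, and averaged 26887 ± 6282 CPM (SD, n = 2). ACLKA7_003910, in block 1, stood at 28396 and 19494 CPM, and averaged 23945 ± 6294 CPM. Their order was opposite in the 2 libraries, and the difference of their means was smaller than either spread. Together the leading pair held 5.08% of the sense counts in each library. In CPM the first was higher and the second lower in replicate 2. With the TMM scaling explained below, the log2 ratio of ACLKA7_003910 was 0.002 (95% counting interval -0.003 to 0.007), so its lower value in replicate 2 was seen with library totals and not with TMM.

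The next model, ACLKA7_011487 of block 4, had 10458 CPM in replicate 1 and 6906 CPM in replicate 2. The second mean was 2.76 times the third. ACLKA7_008065, also in block 4, had 7223 and 9550 CPM in replicates 1 and 2. ACLKA7_015247, the leading model of block 3, had 9591 and 6937 CPM. The means of these 3 models, 8682 ± 2511, 8387 ± 1645 and 8264 ± 1877 CPM (SD, n = 2), differed by less than their spreads. ACLKA7_002478 of block 1 came next, with 6014 and 7187 CPM in replicates 1 and 2. ACLKA7_013396 led block 2, at 5997 and 7019 CPM. These values lie close to those of ACLKA7_002478, and the order of neighbouring models in this range was not resolved by 2 libraries.

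**Figure D1:**
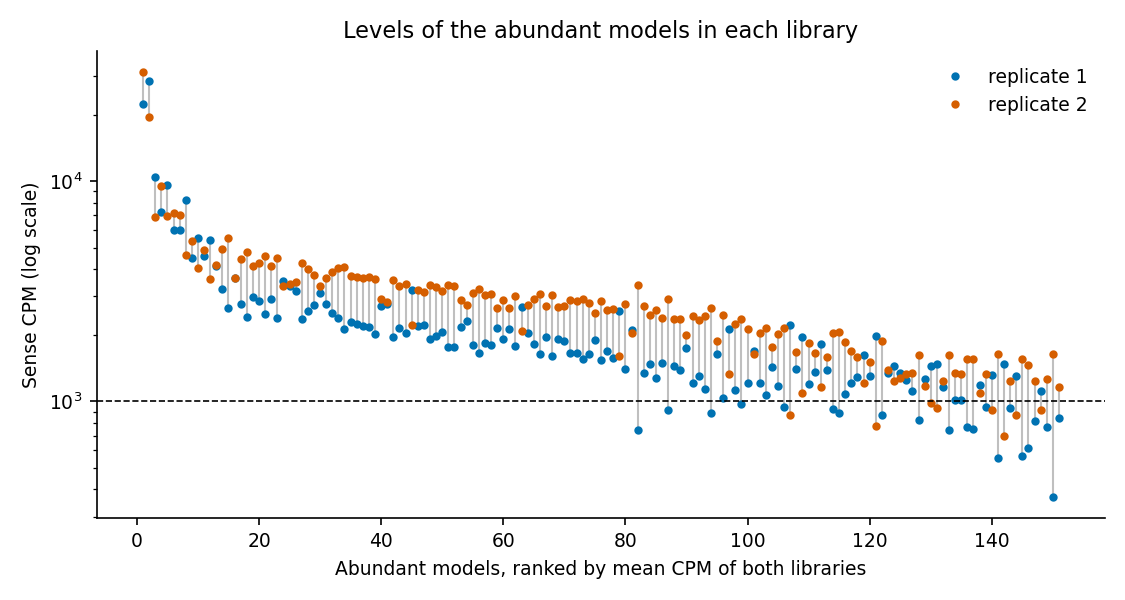
Sense CPM (log axis) of the 151 abundant models, ranked by mean CPM, with 1 point for each library and a grey line joining them; the dashed line marks 1000 CPM. A leading pair stands apart, and in most models further right the replicate 2 point lies above the replicate 1 point.

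Over the 151 models, the median level was 1755 CPM in replicate 1 (quartiles 1231 to 2352) and 2668 CPM in replicate 2 (1635 to 3407). The lowest levels were 370 CPM in replicate 1 and 698 CPM in replicate 2. The rule used the mean of the libraries, and 122 models (80.8%) reached 1000 CPM in both. A further 21 reached it in replicate 2 alone and 8 in replicate 1 alone. Just inside the threshold were ACLKA7_016130, with 844 and 1158 CPM in replicates 1 and 2, and ACLKA7_017528, with 370 and 1636 CPM. Just outside were ACLKA7_002357, with 602 and 1396 CPM, and ACLKA7_012809, with 1404 and 569 CPM. Models on both sides of the threshold thus had libraries on both sides of 1000 CPM.

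The number of models per doubling of level differed between the libraries. In blocks 1 to 4, by mean CPM, 184 models lay between 250 and 500, 113 between 500 and 1000, 68 between 1000 and 2000, 68 between 2000 and 4000, and 10 between 4000 and 8000. In replicate 2 alone, 56 models lay between 1000 and 2000 CPM and 79 between 2000 and 4000 CPM. In replicate 1 these numbers were 86 and 44, so the higher of these classes held more models in replicate 2 and fewer in replicate 1. Models of 2000 to 3000 mean CPM, 48 in number, held 26.1% of the abundant models' counts in replicate 1 and 30.9% in replicate 2. The 8 models of 5000 or more held 27.3% in replicate 1 and 20.3% in replicate 2. The counts of the abundant models were accordingly spread over more models in replicate 2, where 42 models made up 50% of them against 33 in replicate 1.

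The order of the models was partly shared between the libraries. Across the 151 models, the Pearson r of log2 CPM was 0.75 and the Spearman rho 0.74. These are descriptions across models that share the same 2 libraries, and the threshold narrows the range of levels. Of the 10 highest models of each library, 7 were shared (70.0% of each list), and of the 50 highest, 39 (78.0% of each list). The median shift in rank was 19 places, and 14 models moved by more than 50 places.

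**Figure D2:**
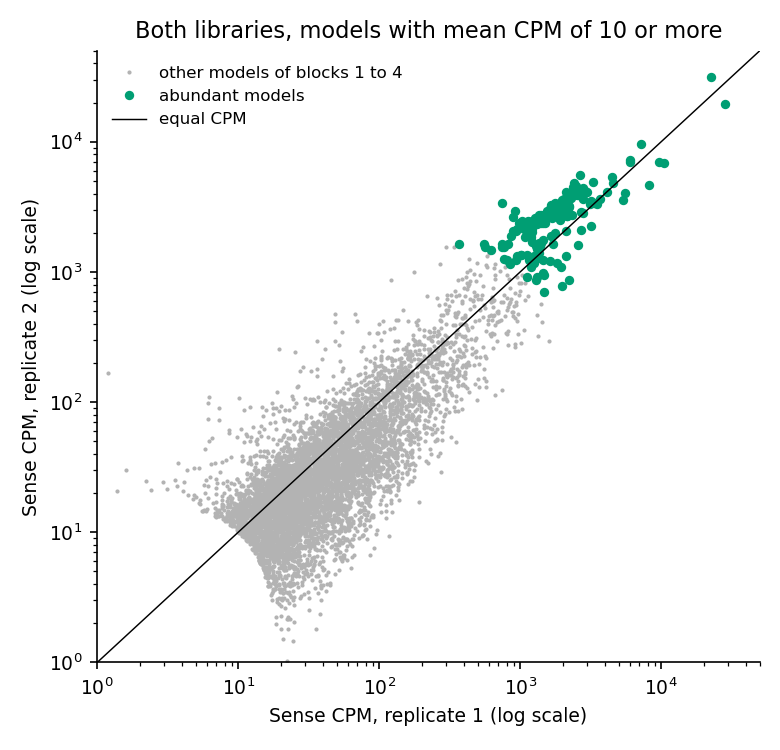
Sense CPM in replicate 1 (x axis) against replicate 2 (y axis), both on log axes, for models of blocks 1 to 4 with a mean CPM of 10 or more; green points are the 151 abundant models and the line marks equal CPM. Of the abundant models, 122 lie above the line and 29 below it.

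Most abundant models were higher in replicate 2. With CPM as defined above, 122 were higher in replicate 2 and 29 in replicate 1, and the median log2 ratio of replicate 2 to replicate 1 was 0.60. CPM forces the libraries to the same total, so a gain of these models lowers all others. The ratios below therefore also use the trimmed mean of M-values (TMM), which scales the libraries on the bulk of models. TMM added 0.54 to every log2 ratio. On that scale the median was 1.14 (quartiles 0.66 to 1.39), against 0.09 over the 7826 models of all blocks with a mean CPM of 10 or more. TMM takes most models as unchanged, so a median near 0 over the 7826 follows largely from the scaling. With library totals their median was -0.45.

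With TMM, 89 of the 151 were past 2-fold towards replicate 2, and 0 towards replicate 1. Of the 26 models of 1000 CPM or more in blocks 5 and 6, 16 were past 2-fold towards replicate 2 and 0 towards replicate 1. Over the 7826 models, the share past 2-fold was 16.3% towards replicate 2 and 16.1% towards replicate 1, a balance that the scaling largely sets. With library totals, 23 abundant models were 2-fold higher in replicate 2 and 3 in replicate 1, where the shares over the 7826 models were 4.93% and 30.8%. The 23 were past 2-fold in replicate 2 under TMM, library totals and DESeq2 size factors. The ratios use the same sense counts that picked the abundant models, so these counts are not independent of the choice. Of the 151, 21 reached 1000 CPM in replicate 2 alone and 8 in replicate 1 alone. Such models entered through the library where they were high, which favours large ratios, and the 7826 models were not picked in this way. With 1 library on each side, these ratios have no replicate check, and no test was made.

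By block, the median log2 ratio with TMM was 1.24 over 39 models in block 1, 1.17 over 30 in block 2, 1.04 over 31 in block 3 and 1.03 over 51 in block 4. The 26 models of blocks 5 and 6 with a mean CPM of 1000 or more, which the rule leaves out, had a median of 1.06. The SD among the models of a block ran from 0.52 to 0.70. Differences between blocks were not tested.

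The abundant models differed less among themselves than models of lower level did. The SD of the log2 ratio, which does not depend on the scaling, was 0.62 over the 151 models, against 1.02 over 939 models of 100 to 1000 CPM and 1.05 over 5394 models of 10 to 100 CPM in blocks 1 to 4. Of the 151, 102 (67.5%) lay within 0.5 of their median. The median half-width of the 95% counting interval of a ratio was 0.02 and the largest 0.03, so counting error made up little of this spread. Among the level classes of blocks 1 to 4, the quartile range was narrowest in the 48 models of 2000 to 3000 CPM. It was 0.35 there, around a median of 1.27. It was 1.15 in the 40 models of 1000 to 1500 CPM and 1.33 in the 939 models of 100 to 1000 CPM. The 26 models of 1000 CPM or more in blocks 5 and 6 had a quartile range of 0.34, against 0.72 over the 151. Their SD was 0.65, so the smaller spread was also seen outside blocks 1 to 4.

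Within the abundant models, the ratio did not change in one direction with level. The median log2 ratio with TMM was 0.89 at 1000 to 1500 CPM, 1.30 at 1500 to 2000, 1.27 at 2000 to 3000, 1.04 at 3000 to 5000 and 0.42 in the 8 models of 5000 CPM or more. With library totals the last value was -0.12, so its sign depends on the scaling, and 4 of these 8 models were then lower in replicate 2. The Spearman rho of level and ratio across the 151 models was -0.07. Below the threshold in blocks 1 to 4, the median with TMM was lower. It was 0.35 over the 939 models of 100 to 1000 CPM and 0.07 over the 5394 models of 10 to 100 CPM. With library totals these medians were -0.20 and -0.48. Of the 939 models, 210 were past 2-fold towards replicate 2 with TMM and 97 towards replicate 1.

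**Figure D3:**
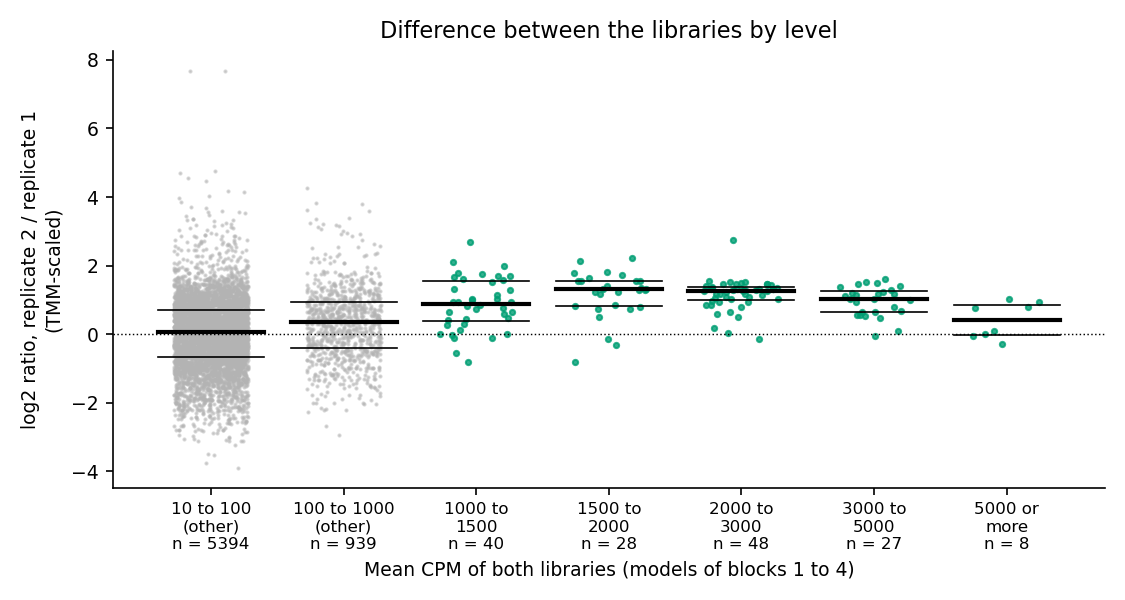
TMM-scaled log2 ratio of replicate 2 to replicate 1 (y axis) by mean CPM (x axis) in models of blocks 1 to 4; each point is a model, thick lines are medians and thin lines quartiles, grey for other models and green for the abundant ones. The quartile range is 1.33 at 100 to 1000 CPM and 0.35 at 2000 to 3000 CPM.

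Some models lay far from the median log2 ratio of the 151. ACLKA7_003971 of block 1 had 19417 sense counts in replicate 1 and 86755 in replicate 2, which is 743 and 3396 CPM. Its log2 ratio was 2.74 with TMM (95% counting interval 2.72 to 2.76) and 2.19 with library totals. It ranked 146 among the 151 models in replicate 1 and 40 in replicate 2. ACLKA7_017528 of block 3 had 9673 and 41796 counts, and its log2 ratio was 2.69 with TMM (2.66 to 2.72).

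In the other direction, ACLKA7_017284 of block 3 had 52094 and 19813 counts in replicates 1 and 2, with a log2 ratio of -0.82 with TMM (-0.84 to -0.79) and -1.36 with library totals. ACLKA7_013556 of block 2 had 58027 and 22173 counts, and its log2 ratio was -0.81 (-0.83 to -0.79). They ranked 58 and 42 in replicate 1 and 150 and 149 in replicate 2. In all, 13 of the 151 models were lower in replicate 2 with TMM. These models were picked for their ratio, so the values may overstate what another pair of libraries would show.

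The abundant models were spread along all 4 blocks. They made up 1.23% of the models of block 1, 1.01% of block 2, 1.01% of block 3 and 1.30% of block 4. They held 48.3% of the counts of block 1 in replicate 1 and 56.3% in replicate 2, and 48.2% and 62.2% of those of block 4. In block 2 the shares were 33.7% and 44.4%, and in block 3 37.1% and 48.6%. The median number of other models between one abundant model and the next was 59. The longest stretch without one, 350 models, lay in block 3, and 5 stretches were longer than 300 models. Cut into 4 equal stretches in table order, block 1 held 4, 14, 13 and 8 abundant models, and block 4 held 11, 9, 20 and 11.

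**Figure D4:**
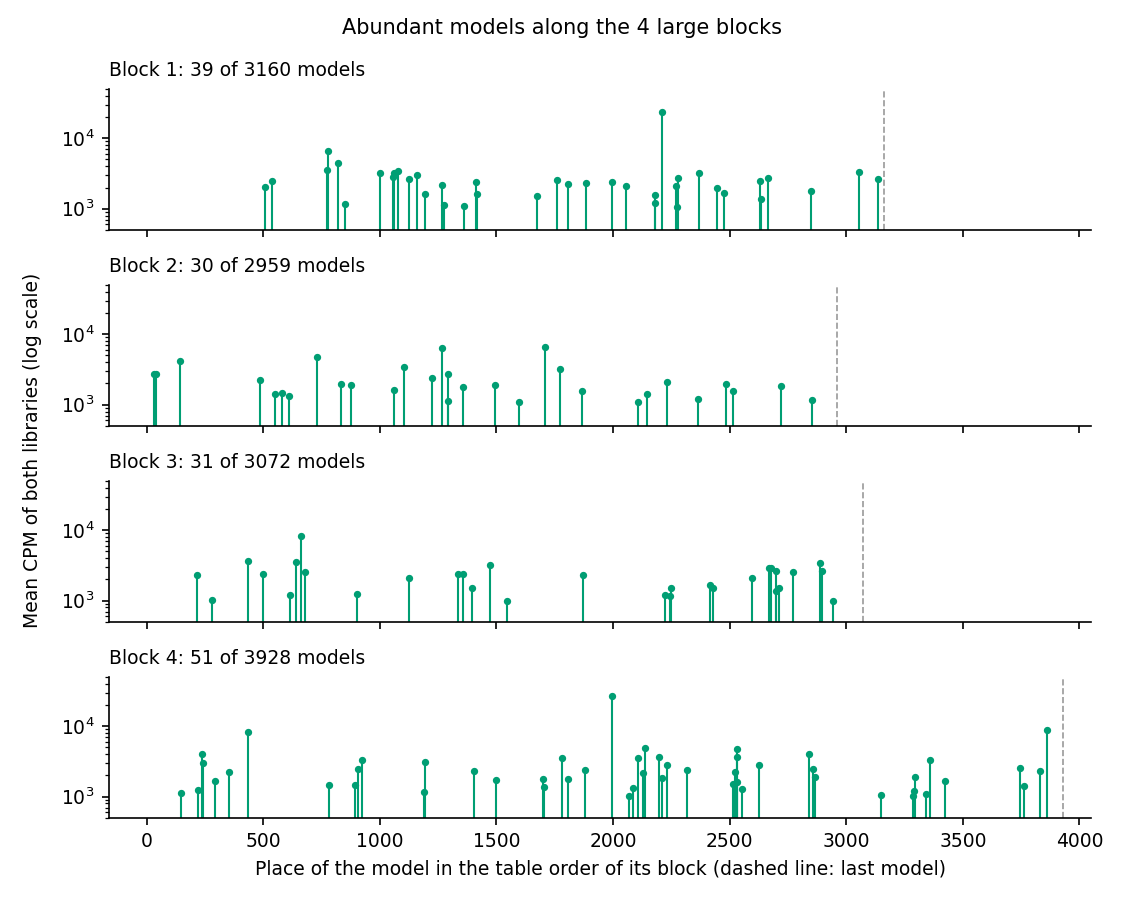
Mean CPM of both libraries (log axis) of each abundant model against its place in the table order of its block, with 1 panel for each of blocks 1 to 4 and a dashed line at the last model. Abundant models occur along the length of each block, with 39, 30, 31 and 51 models in blocks 1 to 4.

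Abundant models had another abundant model beside them about as often as models of 100 to 1000 CPM did. At the next or previous tag, 7 of 151 (4.64%) had one. The share was 2.28% over all models of blocks 1 to 4 and 4.26% over those of 100 to 1000 CPM. Within 5 tags the number was 24 (15.9%), against 10.6% of all models of blocks 1 to 4. The median mean CPM of the 302 next and previous models was 18.2. It was 15.9 for neighbours of models of 100 to 1000 CPM and 9.72 for neighbours of all models of blocks 1 to 4. Of the 302 neighbours, 33 (10.9%) were below 1 CPM, against 6554 of the 26220 neighbours of all models of blocks 1 to 4. The neighbours of abundant models thus had higher levels than those of all models of these blocks.

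The 7 adjacent models formed a run of 3 and 2 pairs. In block 4, ACLKA7_010159 had 4564 CPM in replicate 1 and 4861 CPM in replicate 2. Next to it, ACLKA7_010160 had 1440 and 1771 CPM, and ACLKA7_010161 had 3651 and 3635 CPM. Their log2 ratios with TMM were 0.64, 0.84 and 0.54, all below the median of the 151 models. Beyond the ends of the run, the counts dropped. ACLKA7_010158 had 166 counts in replicate 1 and 335 in replicate 2, and ACLKA7_010162 had 79 and 53.

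In block 1, ACLKA7_003879 had 1262 and 1175 CPM in replicates 1 and 2, and its neighbour ACLKA7_003880 had 1406 and 1678 CPM. Their log2 ratios with TMM were 0.44 and 0.80. The second pair was ACLKA7_003971, described above for its ratio, and ACLKA7_003972, at 567 and 1556 CPM in replicates 1 and 2. Its log2 ratio was 2.00 with TMM, so both models of this pair were far higher in replicate 2. On either side of the pair the level was low, with 665 and 396 counts in ACLKA7_003970 and 1 count in each library in ACLKA7_003973.

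The ratios of abundant models and of their less abundant neighbours were weakly related. Over 191 pairs of an abundant model and a next or previous model of 10 to 1000 CPM, from 127 abundant models, the Pearson r of the log2 ratios was 0.11 and the Spearman rho 0.11. These are descriptions across models of the same 2 libraries. The neighbours in these pairs had a median log2 ratio of 0.05 with TMM and -0.49 with library totals.

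Antisense counts, which the rule did not use, were small beside the sense counts of the abundant models. The antisense share is the share of a model's strand-specific counts that lie on the strand opposite to it. Its median over the 151 models was 0.0256% in replicate 1 and 0.0333% in replicate 2. The medians were 0.0874% and 0.109% over models of 100 to 1000 CPM, and 0.369% and 0.394% over the 12625 models with 10 or more strand-specific counts in both libraries. In 131 of 151 models (86.8%) the share was under 0.1% in both libraries, against 20.9% of the 12625 models. It was under 0.1% in both in 76.9% of the 26 models at this level in blocks 5 and 6. The share is taken over counts that are mostly sense counts, on which the rule rests, so a low share follows in part from the choice of models. A model with few counts can be under 0.1% only with 0 antisense counts, so the shares are also not at matched depth. The highest share in any abundant model was 0.535% in replicate 1 and 0.402% in replicate 2. These reads also served as evidence for the models, so a model's strand was not set independently of them.

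In counts, the 151 models held 3423 antisense counts in replicate 1 and 5812 in replicate 2, or 1.56% and 2.67% of the antisense counts of the respective library. Their median was 11 antisense counts in replicate 1 and 20 in replicate 2, against 5 and 5 for models of 100 to 1000 CPM and 3 and 2 for the 12625 models. By the median, the abundant models thus had more antisense counts than models of lower level. This did not hold for the largest counts. The highest was 223 in replicate 1 and 342 in replicate 2 among the abundant models. It was 13142 and 12507 among the 939 models of 100 to 1000 CPM, which held 36343 and 35919 antisense counts in all. The antisense share was higher in replicate 2 in 114 of 151 models. This direction was not particular to them. The median share was also higher in replicate 2 over models of 100 to 1000 CPM (0.0874% and 0.109% in replicates 1 and 2) and over the 12625 models (0.369% and 0.394%). The Spearman rho of the shares in replicate 1 and replicate 2 was 0.71 across models, as a description of models that share the same 2 libraries.

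**Figure D5:**
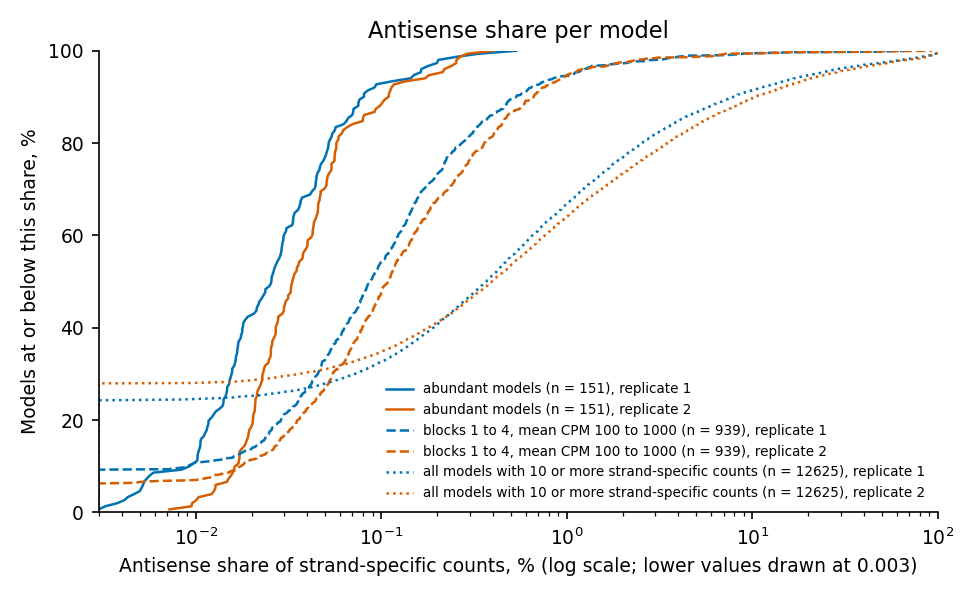
Cumulative percentage of models (y axis) by antisense share of strand-specific counts (x axis, log), for the abundant models (solid), models of 100 to 1000 CPM in blocks 1 to 4 (dashed) and the 12625 models with 10 or more strand-specific counts (dotted), in each library. The abundant models' curves lie at the lowest shares over most of the range, with medians of 0.0256% and 0.0333%.

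By the mean of both libraries, the highest antisense shares were in ACLKA7_015198 of block 3 and ACLKA7_013044 of block 2. ACLKA7_015198 had 104 antisense and 19330 sense counts in replicate 1, and 72 and 41615 in replicate 2. ACLKA7_013044 had 143 antisense and 42922 sense counts in replicate 1, and 122 and 47954 in replicate 2. Both also lost counts in the unstranded column, which leaves out reads that lie in models of both strands. The losses were 45 counts in replicate 1 and 23 in replicate 2 for ACLKA7_015198, and 34 and 49 for ACLKA7_013044. The previous tag of the former, ACLKA7_015197, and the next tag of the latter, ACLKA7_013045, lost the same numbers. ACLKA7_017181 of block 3, picked after its values were seen, had a mean share of 0.291%, next to 0.293% for ACLKA7_013044, and the highest share of the 151 models in replicate 2. It had 120 antisense and 67036 sense counts in replicate 1, and 166 and 41095 in replicate 2. It lost 0% in the unstranded column in replicate 1 and 0.00485% in replicate 2. These shares are high only among the 151 models, since the median of the mean share over the 12625 models was 0.485%. Whether the antisense counts are related to the lost counts was not tested.

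Among the 151 models, the loss in the unstranded column was largest in ACLKA7_008065, the fourth most abundant of them. It and ACLKA7_002548, picked after their values were seen, were the only ones of the 151 that lost 1% or more in the unstranded column in both libraries. ACLKA7_008065 lost 6.94% of its strand-specific counts in replicate 1 and 5.12% in replicate 2, which is 13106 and 12493 counts. The previous tag, ACLKA7_008064, lost 13105 and 12492 counts. That neighbour had 13142 antisense counts in replicate 1 and 12507 in replicate 2, against 5579 and 906 sense counts. The libraries held 219012 and 217820 antisense counts in all, so 1 model next to an abundant one carried 5.74% of them in replicate 2.

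ACLKA7_002548 of block 1 lost 692 counts in replicate 1 and 1738 in replicate 2. Its previous tag, ACLKA7_002547, lost 684 and 1733, and had 683 and 1738 antisense counts against 151 and 515 sense counts. Over all 151 models, 6 lost 20 or more counts in both libraries, and 5 of these had a next or previous tag whose loss matched within 10% in both. A count of 58 models lost none in either library. No such counts over other models are given here, so whether these losses are rarer in abundant models was not tested.

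The 292 models next to an abundant model that were not abundant themselves held 10.2% of the antisense counts of replicate 1 and 13.0% of those of replicate 2, and made up 1.65% of all models. Without ACLKA7_008064 these shares were 4.20% and 7.23%. In 8 of the 292 (2.74%), antisense counts were above sense counts and at 10 or more in each library, against 1.53% of the models of blocks 1 to 4.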

How the data were processed

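RNA of whole adults was measured in 2 libraries prepared with a strand-marking kit from 1 µg of RNA, per the labels. The submitters' processing notes name fastp and STAR 2.7.11b, and the series text names BRAKER 3.0.6 for the gene models. Settings and genome build (not given in the sources used here) could not be checked. The deposited values are raw counts per model in 3 columns, unstranded and for each strand, in tables with no header. The last column, which held the larger strand-specific sum, was taken as sense. The 4 rows of reads in no model (38.3% of reads in replicate 1 and 41.2% in replicate 2) were left out of library sizes. Sense counts summed to 26141490 and 25544996.

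TMM factors came from edgeR 4.0.16 on 12957 models that reached 10 counts in either library, and size factors from DESeq2 1.42.0, in R 4.3.3. Python 3.11.15, pandas 2.3.3 and scipy 1.17.1 gave the rest. Counting intervals are exact (95%). The scaling was tested on simulated data with counting error alone, in which 200 other models changed and the abundant models shifted together or not at all. The real libraries differed more widely, with an SD of the log2 ratio of 1.05 over the 7826 models. The simulation therefore cannot show how well TMM scales these libraries. The labels call the libraries biological replicates, 1 per pool, and no test between groups was made. The abundant models and the measures were chosen with earlier results of these data known. Models were named by rule: the 6 highest, the highest of each block, the 2 largest ratios each way, the 2 highest antisense shares, those beside the threshold, and the longest runs of adjacent tags. Alternatives were other scalings, CPM minimums, unstranded counts and each library alone.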

Additional observations from a re-analysis of the deposited data

How the results depend on the processing

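A value was called kept when it stayed inside the spread of the replicates or its counting interval, or, for counts, within a factor of 1.5. By these limits 32 of the 55 alternatives were kept and 23 moved. The tally of reversed directions was 0, but numbers of models, shares and SDs have no sign and could not reverse. The median log2 ratio has a sign, and it stayed above 0 in each alternative that gave one. With library totals the median log2 ratio was 0.60, with 23 models 2-fold higher in replicate 2 and 3 in replicate 1. TMM with no filter on low counts gave a median of 1.11. A minimum of 500 mean CPM gave 264 models with 48.8% of the counts, 202 of them at 500 CPM or more in both libraries, a median ratio of 0.94 with an SD of 0.83, 8 models 2-fold higher in replicate 1 and 11 with an adjacent member. A minimum of 2000 gave 83 models with 31.2% of the counts, 54 of them at 2000 CPM or more in both libraries, 53 that were 2-fold higher in replicate 2, an SD of 0.49 and 0 with an adjacent member. Of all reads, the abundant models held 24.6%. Within 5 tags, 24 models had another. Chosen in one library alone, the models numbered 143 (without replicate 2) to 159 (without replicate 1). Across these choices the share ran from 35.9% to 47.1%, the median ratio from 0.95 to 1.23 and its SD from 0.61 to 0.73. Models 2-fold higher in replicate 2 numbered 69 to 105 and those higher in replicate 1 from 0 to 5. Choice in 1 library favours models that are high there, so by construction it moves these ratios towards that library. The median antisense share ran from 0.0260% to 0.0325%, and 5 to 7 models had an adjacent member. Where a minimum was changed, more or fewer models entered by construction; for the scaling, the cause was not tested. No paired analysis was possible because the series has 1 group. Depth limits the antisense shares, which rest on a median of 11 and 20 counts per model.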
